A study of Rattus norvegicus with 28 samples.

Results

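Paired and unpaired odor-shock training were compared in the amygdala of 8-day-old rat pups given corticosterone, on 3 arrays of paired and 3 of unpaired pups. The 6 arrays were chosen by their labels from the 28 of the series. The other 22 arrays came from 8-day-old pups given saline and from untreated 12-day-old pups, each also trained paired or unpaired. In a 45-min session every pup received 11 presentations of a peppermint odor, each lasting 30 s, and a tail shock of 0.5 mA for 1 s. In paired pups the shock overlapped the end of the odor, and in unpaired pups it came 2 min after the odor, so that all 6 samples had received the hormone, the odor and the shock and differed by label in their timing. The amygdala was taken immediately after training, and total RNA from 50 to 80 mg of tissue per sample was hybridised to the smaller of the study's 2 Affymetrix designs, which holds 15866 probe sets. The labels give neither the dose of corticosterone nor whether a sample is 1 pup or a pool, so the p-values measure the spread between samples.

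Corticosterone is the main glucocorticoid of the rat. It acts through the glucocorticoid and mineralocorticoid receptors, which are transcription factors, and its level is low in young pups. In the young pup an odor paired with shock is usually followed by approach to the odor and in the older pup by avoidance, and corticosterone given to a young pup is known to bring the avoidance forward. The amygdala is needed for learned avoidance and receives dopamine fibres from the midbrain. Dopamine is made by tyrosine hydroxylase (Th) and aromatic amino acid decarboxylase (Ddc), loaded into vesicles by Slc18a2, taken back up by the transporter Slc6a3, broken down by Maob, and sensed by receptors of the D1 type (Drd1, Drd5), which raise cyclic AMP, and of the D2 type (Drd2, Drd3, Drd4), which lower it.

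No probe set passed the test between paired and unpaired corticosterone pups. By limma with Benjamini-Hochberg adjustment over 15866 probe sets, 0 (0%) had an adjusted p under 0.05, and the smallest adjusted p was 0.676. At an unadjusted p under 0.05, 137 probe sets (0.863%) were higher and 312 (1.97%) lower in paired pups, and the rank product, which the series' design text names as the study's test, called 5 higher (0.0315%) and 0 lower (0%). The 3 paired arrays did not overlap the 3 unpaired arrays in 308 probe sets (1.94%) that were higher and 797 (5.02%) that were lower in paired pups. A log2 difference of 1 is a doubling in signal, and the differences of most probe sets were small, from -0.17 at the 5th to 0.17 at the 95th percentile, beside a median SD within a group of 0.09 (n = 3).

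The direction of small differences depended on the level of a probe set. Over all probe sets 38.2% were above 0 in paired minus unpaired pups. Of the 8050 probe sets with a mean log2 level of at least 5, 52.5% were above 0, with 264 (3.28%) higher and 278 (3.45%) lower without overlap. Of the 7816 dimmer ones 23.4% were above 0, with 44 (0.563%) higher and 519 (6.64%) lower without overlap, although their median difference was only -0.03. A count of lower genes among dim genes is therefore to be read against the larger share. The plot of level against difference shows this together with the genes described next.

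**Figure D1:**
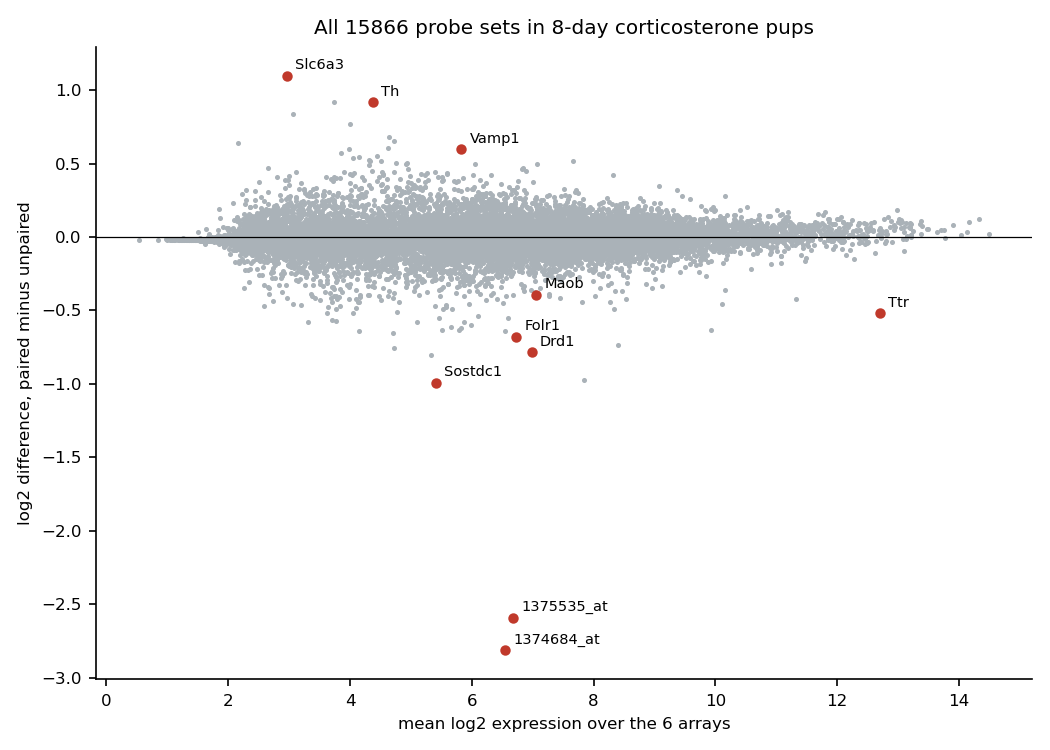
Log2 difference between paired and unpaired corticosterone pups (y axis) against the mean log2 level over the 6 arrays (x axis), with 1 grey point per probe set and named points in red. Slc6a3 at 1.10 and Th at 0.92 are the highest named points, Sostdc1 at -0.99 and Drd1 at -0.78 are among the lowest named genes, and 2 probe sets without a gene name lie far below, at -2.59 and -2.81.

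Markers of neighbouring tissue were present in every array. Pmch, a peptide of lateral hypothalamic neurons, lay between 9.14 and 10.03, and Ttr, the transthyretin of the choroid plexus, between 11.52 and 13.11. Of 10 genes listed for amygdala and pallium 5 were measured, and of these Nr2f2 (6.43 to 7.84), Slc17a7, the vesicular transporter of cortical glutamate neurons (6.47 to 6.75), and Camk2a (4.76 to 5.84) were above the dim end, whereas Neurod2 (2.83 to 2.86) and Cyp26b1 (2.90 to 3.0) were at it. Array medians were 5.06 to 5.09 and correlations between arrays 0.995 to 0.998, but paired arrays 2 and 3 stood apart in marker lists. In the mean log2 deviation from the 6-array mean, paired array 2 was lowest for striatal projection neuron genes (-0.82) and highest for dopamine synthesis and transport (0.54). Paired array 3 was highest for the striatal list (0.58) and lowest for dopamine synthesis (-0.39) and choroid plexus (-0.68).

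**Figure D2:**
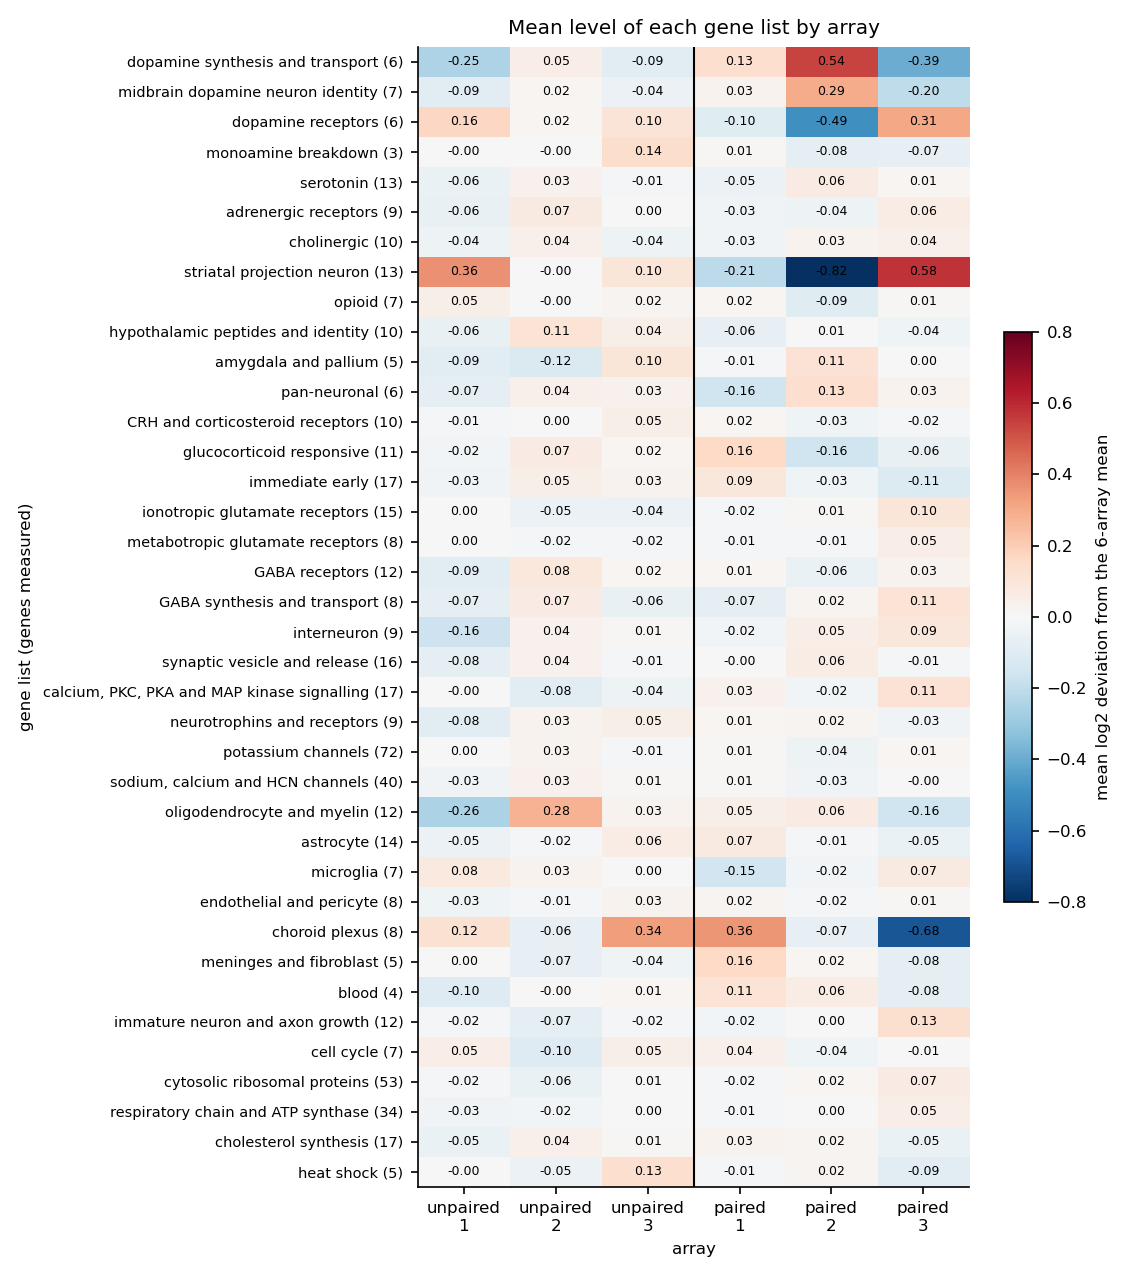
Mean log2 deviation from the 6-array mean for each gene list with at least 3 measured genes (rows, number of genes in brackets) in each array (columns, unpaired left and paired right of the line), with red above and blue below the mean. Deviations beyond 0.5 in size occur in paired arrays 2 and 3 only, in the dopamine synthesis (0.54), striatal (-0.82 and 0.58) and choroid plexus (-0.68) lists.

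Th (1387075_at) and Slc6a3 (1368601_at) were higher in paired arrays 1 and 2 than in every unpaired array, but not in paired array 3. The bases around the transcription start of the 4 dopamine genes that varied most among the arrays are shown because Th, Slc6a3 and Slc18a2 were highest in paired array 2, and Drd1 (1368478_at) was lowest there and highest in paired array 3. They run from 250 bases before to 50 bases after the start in RefSeq's GRCr8 assembly, at chr1:207508169-207508468 (minus strand) for Th, chr1:31578913-31579212 (minus) for Slc6a3, chr1:268399771-268400070 (plus) for Slc18a2 and chr17:10546354-10546653 (plus) for Drd1.
Th: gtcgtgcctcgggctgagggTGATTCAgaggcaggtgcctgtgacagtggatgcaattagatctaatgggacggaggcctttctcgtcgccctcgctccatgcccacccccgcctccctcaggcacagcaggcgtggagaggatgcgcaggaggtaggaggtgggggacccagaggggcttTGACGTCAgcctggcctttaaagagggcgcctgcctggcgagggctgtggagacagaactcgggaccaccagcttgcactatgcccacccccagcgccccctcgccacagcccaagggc
Slc6a3: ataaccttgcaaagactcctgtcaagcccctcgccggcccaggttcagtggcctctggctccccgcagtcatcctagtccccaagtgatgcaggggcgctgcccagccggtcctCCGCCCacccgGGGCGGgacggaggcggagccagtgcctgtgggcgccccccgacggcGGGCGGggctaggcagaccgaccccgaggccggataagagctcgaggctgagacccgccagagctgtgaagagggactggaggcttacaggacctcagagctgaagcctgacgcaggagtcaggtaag
Slc18a2: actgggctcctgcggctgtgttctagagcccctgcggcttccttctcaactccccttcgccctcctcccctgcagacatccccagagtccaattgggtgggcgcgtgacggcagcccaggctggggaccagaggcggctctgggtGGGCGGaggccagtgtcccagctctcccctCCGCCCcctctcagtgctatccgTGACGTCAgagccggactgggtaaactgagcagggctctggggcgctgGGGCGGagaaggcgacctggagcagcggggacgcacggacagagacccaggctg
Drd1: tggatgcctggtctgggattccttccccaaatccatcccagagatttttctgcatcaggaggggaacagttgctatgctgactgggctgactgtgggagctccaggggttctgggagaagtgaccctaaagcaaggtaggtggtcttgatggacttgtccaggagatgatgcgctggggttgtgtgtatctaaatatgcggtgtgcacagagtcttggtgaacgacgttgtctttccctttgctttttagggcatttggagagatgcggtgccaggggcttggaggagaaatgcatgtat
Capitals mark matches on either strand to the cyclic AMP response element TGACGTCA, the AP-1 motif TGANTCA or the GC box GGGCGG, none of which overlapped another here. Th has the cyclic AMP element 69 bases and an AP-1 motif 230 bases before the start, and Slc18a2 has the cyclic AMP element 52 bases before it. Slc6a3 has 3 GC boxes and Slc18a2 has 3, and the Drd1 window holds none of the 3 motifs. Of 33469 rat promoter windows of this length, 1.83% hold the cyclic AMP element, 7.33% the AP-1 motif and 33.1% the GC box, and a match is a description of letters only.

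Th has 2 probe sets. The first, 1387075_at, measured 5.38, 6.07 and 3.05 in paired arrays 1 to 3 and 3.52, 4.36 and 3.86 in unpaired arrays 1 to 3. Paired arrays 1 and 2 were above every unpaired array and paired array 3 was below every one, so the groups overlapped. The difference was 0.92 ± 0.75 (SE, n = 3 and 3; limma adjusted p = 0.703), a ratio of 1.89. It was 0.30 without paired array 2 and 1.81 without paired array 3. This probe set was among the 5 called by the rank product. Its estimated percentage of false positives (pfp) was 0.007 on a scale from 0 to 1. The rank product shuffles probe sets within arrays, so a pfp does not measure the spread between samples. The other, 1373443_a_at, measured 6.16, 6.33 and 6.25 in paired and 5.94, 6.21 and 6.20 in unpaired pups. It differed by 0.13 ± 0.10 (SE) and also overlapped.

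Slc6a3, the dopamine transporter, measured 3.14, 5.03 and 2.36 in paired arrays 1 to 3 by probe set 1368601_at, and 2.38, 2.50 and 2.35 in the unpaired arrays. Only paired arrays 1 and 2 stood above the others, and paired array 3 was at the unpaired level. The difference was 1.10 ± 0.63 (SE; limma adjusted p = 0.676), with a rank product pfp of 0.048, and it was 0.34 without paired array 2. The other Slc6a3 probe set, 1368602_at, lay between 1.92 and 2.02 in all 6 arrays. Slc18a2, the vesicular monoamine transporter, measured 4.47, 5.13 and 3.67 in paired arrays 1 to 3 by 1369132_at and 3.78, 4.57 and 4.00 in the unpaired arrays, which differed by 0.31 ± 0.39 (SE). By 1369131_at the same gene measured 5.80, 6.24 and 4.56 against 4.79, 5.92 and 5.66, a difference of 0.08 ± 0.48 (SE). Paired array 2 was the highest and paired array 3 the lowest for both Slc18a2 probe sets.

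Ddc, which also serves serotonin synthesis, measured 5.21, 5.30 and 4.37 in paired and 5.23, 5.42 and 5.11 in unpaired pups (difference -0.29 ± 0.25, SE), and only paired array 3 was away from the rest. Gch1, which makes the cofactor of Th, and Dbh, which turns dopamine into noradrenaline, stayed between 1.51 and 2.91 in all arrays. Among the 6 genes that make, load and take up dopamine, 5 were above 0 in paired minus unpaired pups and none was free of overlap, with 3 of the 6 at a mean of at least 5 and a median of 0.09 beside -0.02 over all probe sets. The midbrain dopamine neuron markers gave 3 of 7 above 0, with only Ret at a mean of at least 5 and a median of -0.02 that was 0.003 after quantile normalization. Of these Ret, the receptor for glial neurotrophic factors, was highest in paired arrays 1 and 2 by 1370989_at (6.48, 6.70 and 5.80 in paired and 5.64, 6.06 and 6.11 in unpaired pups). Its difference ranged from 0.20 to 0.65 when each array was left out. For the Ret probe sets 1371112_at and 1388208_a_at the ranges were -0.07 to 0.003 and -0.05 to 0.38, so their sign was not stable. Aldh1a1, an aldehyde dehydrogenase of a subset of dopamine neurons, stood out only in paired array 2 (3.68) and to a lesser degree in unpaired array 2 (2.66), with the other arrays between 2.13 and 2.23. Nr4a2, a nuclear receptor needed for dopamine neurons, measured 4.86, 4.98 and 4.64 against 5.17, 4.95 and 5.08, and Pitx3, Foxa2 and Chrna6 were dim in all 6 arrays (2.16 to 2.59). Whether fewer cells or axons of a type or less RNA per cell gave a lower level cannot be told apart in bulk tissue.

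The brighter dopamine receptors had the opposite order among the paired arrays. Drd1 measured 6.61, 4.98 and 8.18 in paired arrays 1 to 3 and 7.78, 6.96 and 7.39 in unpaired arrays by 1368478_at. Paired array 3 was above and paired arrays 1 and 2 below every unpaired array. The difference was -0.78 ± 0.75 (SE; limma adjusted p = 0.745), and it was 0.02 without paired array 2. The second Drd1 probe set, 1368479_at, measured 5.34, 4.09 and 6.18 against 6.38, 5.39 and 5.74 (difference -0.63 ± 0.53, SE). Drd2 measured 5.64, 5.03 and 6.66 against 6.32, 5.98 and 6.12 (difference -0.37 ± 0.39, SE), the same order of the paired arrays as for Drd1. Drd3, Drd4 and Drd5 stayed between 2.20 and 2.54, where Drd5 was lower in paired pups without overlap by 0.07 on the log2 scale. Caly, which binds the D1 receptor, was bright (10.95 to 11.35) and differed by 0.13 ± 0.09 (SE).

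**Figure D3:**
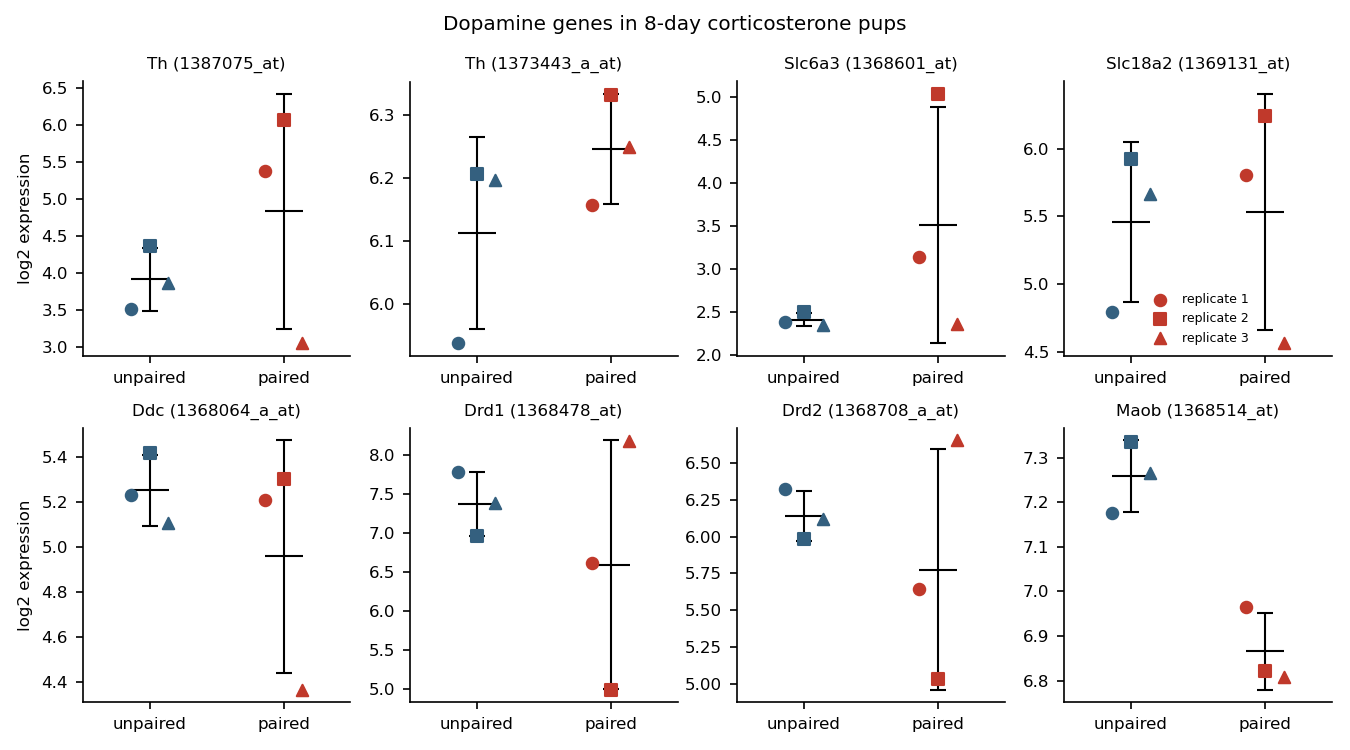
Log2 expression (y axes, a scale of its own in each panel) of 8 probe sets of dopamine genes in unpaired and paired corticosterone pups, with 1 point per array, marked by replicate, and black bars for the mean and SD (n = 3). Paired replicate 2 is the highest point for Th, Slc6a3 and Slc18a2 and the lowest for Drd1 and Drd2, paired replicate 3 is the highest for Drd1 and Drd2 and the lowest for Th (1387075_at) and Slc18a2, and only Maob has groups that do not overlap.

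Maob, the monoamine oxidase that degrades dopamine and is abundant in glia, was the only bright dopamine gene, among those listed here, whose groups did not overlap. It measured 6.97, 6.82 and 6.81 in paired and 7.18, 7.33 and 7.27 in unpaired pups, and every paired array was below every unpaired one. The difference was -0.39 ± 0.08 (SE; unadjusted p = 0.00204 by limma, adjusted p = 0.676), and it ranged from -0.44 to -0.35 when each array was left out. An exact permutation test of 3 against 3 arrays cannot give a two-sided p below 0.1. Aldh2, which oxidises the aldehyde that Maob makes, differed by 0.18 ± 0.11 (SE), with overlap.

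Genes of striatal projection neurons, the main dopamine-receiving cells of the striatum, were lower in paired pups in 11 of 13, with a median of -0.37 and none without overlap. The list holds Drd1 and Drd2, described above, and without them 9 of 11 were lower, with a median of -0.25. Rgs9, which shortens G protein signals, measured 5.43, 4.77 and 5.83 in paired and 6.13, 5.58 and 5.69 in unpaired pups (difference -0.46 ± 0.29, SE). Gng7, a G protein subunit that couples striatal receptors to cyclic AMP, measured 6.47, 4.85 and 7.38 against 7.19, 6.77 and 6.65. Paired array 2 was the lowest array for both and paired array 3 was above paired array 1. Tac1, the substance P precursor, differed by -0.37 ± 0.22 (SE) and Rasd2 by -0.25 ± 0.20 (SE), while a dimmer Rasd2 probe set differed by 0.06. Without paired array 2 the median of the list was 0.01, and without paired array 3 it was -0.63. The log2 of the summed linear level of the 13 genes spanned 10.84 to 12.29 in paired and 11.60 to 12.14 in unpaired pups. The part of this spread in the dopamine receptor values was not tested.

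Choroid plexus genes were also below 0 in 7 of 8, with a median of -0.31, and 5 of the 8 had a mean of at least 5. Ttr measured 13.04, 12.78 and 11.52 in paired and 12.96, 12.83 and 13.11 in unpaired pups. Folr1, the folate receptor of this epithelium, measured 7.12, 6.58 and 5.45 against 7.16, 6.66 and 7.37. Sostdc1, a secreted inhibitor that is not on the list and gave the largest lower difference of a named gene by the level rule (-0.99 ± 0.73, SE), measured 5.99, 5.59 and 3.17 against 5.71, 5.59 and 6.43. Paired array 3 was the lowest of the 6 arrays for all 3 genes. Without it the list median was -0.01 and the Sostdc1 difference -0.12. Igf2, a growth factor made by choroid plexus and meninges, was the exception at 8.80, 8.56 and 8.43 in paired and 8.40, 8.32 and 8.38 in unpaired pups, higher without overlap by 0.23 ± 0.10 (SE).

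Of the 2232 named genes with a log2 mean of at least 5 in the higher group, 81 (3.63%) were higher and 76 (3.41%) lower in paired pups without overlap, Igf2 and Maob among them. Separation of 3 against 3 arrays in either direction has an exact permutation p of 0.1 (two-sided). Both shares together were below that, and the leading genes were selected by this separation. Vamp1, a synaptobrevin that fuses synaptic vesicles with the membrane, had the smallest limma p of the 12 leading higher genes, and Maob that of the 12 leading lower ones. Their promoter windows are shown because they head the 2 lists, at chr4:159698644-159698943 (plus) and chrX:8490155-8490454 (plus) in GRCr8, with capitals as above.
Vamp1: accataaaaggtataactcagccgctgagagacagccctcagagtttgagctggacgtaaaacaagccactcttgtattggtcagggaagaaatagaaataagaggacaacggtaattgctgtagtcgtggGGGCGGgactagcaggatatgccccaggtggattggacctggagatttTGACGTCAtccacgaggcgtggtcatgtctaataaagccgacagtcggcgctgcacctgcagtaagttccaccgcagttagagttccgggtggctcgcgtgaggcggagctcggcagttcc
Maob: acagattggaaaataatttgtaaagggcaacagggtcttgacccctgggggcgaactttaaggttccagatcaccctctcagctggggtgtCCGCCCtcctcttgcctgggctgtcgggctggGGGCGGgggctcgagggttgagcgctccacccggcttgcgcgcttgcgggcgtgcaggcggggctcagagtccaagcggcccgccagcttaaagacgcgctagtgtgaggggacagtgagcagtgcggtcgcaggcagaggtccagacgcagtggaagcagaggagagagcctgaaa
Vamp1 has the cyclic AMP element 71 bases before the start and 1 GC box, and Maob has 2 GC boxes and neither of the other motifs.

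Vamp1 measured 5.94, 6.31 and 6.13 in paired and 5.30, 5.63 and 5.65 in unpaired pups by 1370556_at. All paired arrays were above all unpaired arrays, and the difference was 0.60 ± 0.14 (SE; unadjusted p = 0.00441, adjusted p = 0.676 by limma), a ratio of 1.52. It ranged from 0.49 to 0.69 when each array was left out. The brighter Vamp1 probe set 1373510_at did not separate the groups, at 7.35, 7.67 and 7.14 against 7.02, 7.74 and 7.51, and a further one was at the dim end.

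Mapt, the microtubule protein tau, measured 11.06, 11.11 and 11.16 in paired and 10.90, 10.97 and 10.90 in unpaired pups (difference 0.18 ± 0.05, SE). Its other probe set differed by 0.07 with overlap. Map2, its counterpart in dendrites, measured 9.43, 9.61 and 9.74 against 9.36, 9.38 and 9.21 (0.28 ± 0.10, SE), while the brighter Map2 probe set 1388152_at differed by -0.03. Pcdh8, a protocadherin of synaptic adhesion, measured 8.56, 8.45 and 8.45 against 8.22, 8.29 and 8.28 (0.22 ± 0.06, SE). Lsamp, an adhesion protein of limbic neurons, measured 9.59, 9.70 and 9.84 against 9.41, 9.49 and 9.45 (0.26 ± 0.08, SE). None of these passed the adjusted threshold, and the gap between the groups was small in each.

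Dpysl3 and Dpysl5, collapsin response mediator proteins of growing axons, were higher by 0.17 ± 0.06 and 0.19 ± 0.07 (SE). Dpysl3 measured 11.36, 11.22 and 11.26 against 11.14, 11.14 and 11.06. Of its further bright probe sets, 1371688_at differed by -0.05 and 1388101_at by 0.15, both with overlap. The remaining leading genes were Adap1 (0.31 ± 0.09, SE), a regulator of Arf proteins in neurons with a brighter probe set at 0.15, Ndufa5 (0.27 ± 0.09), a subunit of respiratory complex I, Gmfg (0.41 ± 0.15), an actin regulator of blood cells, Dpf1 (0.22 ± 0.08), a chromatin remodelling subunit of neurons, and Unc50 (0.23 ± 0.08). By size alone the rule added Pld1 (0.51 ± 0.21), Cflar (0.50 ± 0.19), Itga1 (0.44 ± 0.24), Myadm (0.44 ± 0.17) and Gria3 (0.43 ± 0.16), all with overlap. The other 4 Pld1 probe sets, including the brighter 1370530_a_at, differed by -0.05 to -0.02. Gria3, a subunit of AMPA receptors, measured 5.08, 5.47 and 5.62 against 4.97, 4.80 and 5.11, and Gria1, another subunit, differed by 0.25 ± 0.13 (SE).

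Myl12b, a regulatory light chain of myosin, measured 7.33, 7.33 and 7.29 in paired and 7.56, 7.59 and 7.58 in unpaired pups (difference -0.26 ± 0.06, SE), and its brighter probe set was lower without overlap as well, by 0.08 on the log2 scale. Fmo1, a flavin monooxygenase, measured 5.75, 5.71 and 5.67 against 6.0, 6.01 and 6.10 (-0.33 ± 0.07, SE). Ccn2, a matrix protein induced by growth factors, measured 5.72, 5.82 and 5.62 against 6.33, 5.98 and 6.24 (-0.46 ± 0.11, SE). Tcn2, the carrier of vitamin B12, measured 7.04, 6.98 and 6.81 against 7.17, 7.35 and 7.34 (-0.34 ± 0.09, SE). Cast, the inhibitor of calpain, had the largest difference of the 12 (-0.58 ± 0.21, SE), at 4.55, 5.07 and 4.82 against 5.11, 5.80 and 5.27. Pdcl, Usp2, Ramp1, Higd1a, Ubqln1 and Myh7 differed by -0.38 to -0.23. Higd1a, a mitochondrial protein, has a brighter probe set with a difference of 0.05, and the dimmer probe sets of Myh7, a myosin of slow muscle, differed by -0.09 and -0.02.

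**Figure D4:**
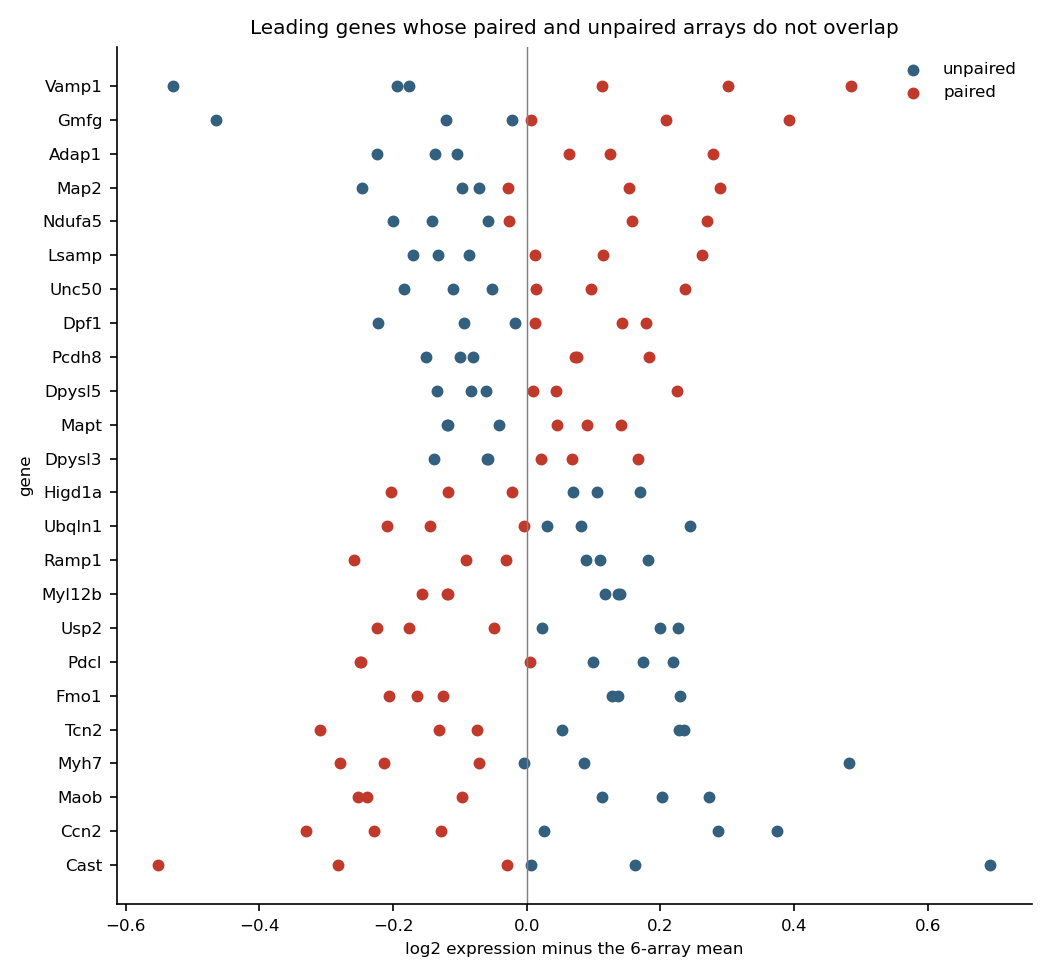
Log2 expression minus the mean of the 6 arrays (x axis) for the 24 leading genes (y axis), 12 higher and 12 lower in paired pups, with 1 point per array. The genes were chosen for groups that do not overlap; the differences run from 0.17 in Dpysl3 to 0.60 in Vamp1 and from -0.23 in Higd1a to -0.58 in Cast.

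Genes of immature neurons and growing axons were higher in paired pups in 9 of 12, with a median of 0.09 and 3 without overlap (Dpysl3, Dpysl5 and Stmn2), beside 52.5% above 0, a median of 0.01 and 3.28% higher without overlap over bright probe sets. Stmn2, a microtubule regulator of growth cones, measured 13.25, 13.20 and 13.30 in paired and 13.13, 13.16 and 13.18 in unpaired pups, and its second probe set was also higher without overlap, by 0.10. Dcx, the doublecortin of migrating neurons, differed by 0.09 ± 0.13 (SE) and Gap43, the growth cone protein, by -0.06 ± 0.12 (SE), both with overlap. Without paired array 3 the median of the list was 0.04. Genes of cytosolic ribosomal proteins were above 0 in 44 of 53, with a median of 0.05 and 4 higher without overlap (Rpl32, Rps2, Rps12 and Rps24), beside the same 3.28%. Second bright probe sets of Rps2 (1375219_a_at) and Rps12 (1388708_at) differed by -0.01 and -0.02, with overlap. Rps24 measured 12.93, 13.14 and 13.15 against 12.92, 12.84 and 12.92, and the median was 0.01 after quantile normalization. Respiratory chain genes gave 24 of 34 above 0 and a median of 0.02.

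Immediate early genes are induced by neurons within minutes of activity. Of 17 measured, 7 were above 0, with a median of -0.04 and none without overlap, and 7 of the 17 had a mean of at least 5. Egr1, a transcription factor used as a marker of learning-related activity, measured 8.40, 8.12 and 8.54 in paired and 8.71, 8.60 and 8.51 in unpaired pups (difference -0.26 ± 0.12, SE). Only paired array 3 was within the range of the unpaired arrays. Arc and Egr3 were dim in all arrays (2.37 to 3.84), Nr4a1 differed by 0.01 ± 0.20 (SE) and Bdnf by -0.14 ± 0.27 (SE). Dusp6, a phosphatase that ends MAP kinase signals, differed by -0.23 ± 0.11 (SE).

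Genes through which corticosterone acts, or which it is known to induce, had small differences between the trained groups. Nr3c1, the glucocorticoid receptor, measured 5.90, 5.59 and 5.88 in paired and 5.82, 5.88 and 5.90 in unpaired pups. Of 11 glucocorticoid-responsive genes measured 6 were above 0, with a median of 0.01 that was -0.002 after quantile normalization, and 6 of the 11 had a mean of at least 5. Klf9, a transcription factor induced by glucocorticoids, measured 8.93, 8.47 and 9.19 against 9.17, 9.14 and 9.15, with only paired array 2 far from the rest (difference -0.28 ± 0.17, SE). Sgk1, a kinase they induce, differed by -0.06 ± 0.09 (SE) and Tsc22d3 by -0.05 ± 0.11 (SE). Of 10 genes for corticotropin-releasing hormone, its receptors and steroid handling, 9 were lower, and 4 of the 10 had a mean of at least 5. The 2 without overlap, Crhr1 and Hsd11b2, differed by -0.04 and -0.02, where 5.02% of all probe sets were lower without overlap. A second Crhr1 probe set, 1398289_a_at, lay the other way at 2.34, 2.75 and 2.62 in paired and 2.32, 2.32 and 2.30 in unpaired pups, higher without overlap by 0.25 ± 0.10 (SE; limma adjusted p = 0.676). Crh itself was dim in all 6 arrays (2.68 to 3.03).

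Transmission and signalling genes had medians within 0.06 of 0. Calcium, PKC, PKA and MAP kinase genes were above 0 in 14 of 17 (median 0.06), beside 52.5% of bright probe sets. Of the 17, 15 had a mean of at least 5, with a median of 0.03. Prkcz, an atypical protein kinase C, was the 1 gene of the list without overlap (0.10 ± 0.06, SE), beside 3.28% of bright probe sets higher without overlap. Camkk2 gave the largest difference (0.57 ± 0.33, SE) through paired array 3 at 4.93. Genes of synaptic vesicles were above 0 in 10 of 16 (median 0.04), with Stx1a, the syntaxin that pairs with synaptobrevins, at 9.65, 9.59 and 9.63 against 9.52, 9.57 and 9.57. Ionotropic glutamate receptors gave 9 of 15 above 0 and GABA receptors 7 of 12. Of 40 sodium, calcium and HCN channels 15 were above 0 and 14 had a mean of at least 5. Without overlap 1 was higher and 3 lower, beside 1.94% and 5.02% of all probe sets. Cacna1c, an L-type calcium channel, was lower (4.31, 4.16 and 4.11 against 4.41, 4.49 and 4.69), as were Scn4a and Hcn2 at the dim end, by 0.03 and 0.01 on the log2 scale. Cacna1g, a T-type channel, was higher (5.88, 5.99 and 5.82 against 5.68, 5.72 and 5.71), although its second probe set overlapped. Of 72 potassium channels 25 were above 0 (median -0.02), beside 38.2% of all probe sets, and 20 of the 72 had a mean of at least 5. The 2 lower without overlap, Kcnj2 and Kcnj15, were dim, beside 5.02% of all and 6.64% of dim probe sets.

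Oligodendrocyte genes were above 0 in 4 of 12 (median -0.06), with 7 of the 12 at a mean of at least 5, but unpaired array 1 was the lowest and unpaired array 2 the highest for Mbp, the myelin basic protein, at 9.21 and 10.29, with the paired arrays at 9.78, 9.79 and 9.61. Without unpaired array 2 the median was 0.03. Astrocyte genes were above 0 in 8 of 14 (median 0.02), microglial genes in 3 of 7 and endothelial genes in 4 of 8, with 11 of 14, 2 of 7 and 5 of 8 at a mean of at least 5. Hspb1, a small heat shock protein, was lower without overlap at 4.07, 4.01 and 3.51 against 4.14, 4.26 and 4.64.

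The effect of pairing was then compared with that in the 10 saline pups measured on the same array design, 5 paired and 5 unpaired. For Th (1387075_at) saline paired pups had a lowest, median and highest level of 4.71, 5.57 and 7.33 and unpaired pups of 6.49, 7.77 and 9.20, and the paired minus unpaired difference was -1.99 ± 0.57 (SE). It was thus 2.91 ± 1.01 (SE) higher in corticosterone than in saline pups (limma adjusted p = 0.743, unadjusted p = 0.0117). For Slc6a3 the corresponding difference was 3.38 ± 1.12 (adjusted p = 0.743) and for Vamp1 1.42 ± 0.49 (adjusted p = 0.745). Drd1 lay the other way, by -2.05 ± 1.15 (adjusted p = 0.821), and its second probe set 1368479_at did so by -1.48 ± 0.90. The brighter Vamp1 probe set 1373510_at gave only 0.39 ± 0.30 (SE; limma adjusted p = 0.9998). Saline means of the other Th probe set, 1373443_a_at, were 8.14 in paired and 8.36 in unpaired pups. For the dim Slc6a3 probe set 1368602_at they were 1.74 and 2.08. Saline paired pups measured 2.35, 2.67 and 5.27 for Slc6a3 (1368601_at) and 6.94, 7.94 and 8.43 for Drd1 (1368478_at; lowest, median and highest). Unpaired saline pups measured 3.38, 5.81 and 6.64 and 4.14, 7.34 and 8.31. The values of corticosterone pups seem to have been normalized apart from those of the other conditions. Levels are therefore not to be compared between the agents, only differences between paired and unpaired pups.

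No probe set passed the test of that difference (0 of 15866, 0%), with 48 (0.303%) higher and 991 (6.25%) lower at an unadjusted p under 0.05. These counts were not split by level, and dim probe sets with small differences are among the lower ones. In saline pups the striatal list was above 0 in 12 of 13 (median 0.44) and the choroid plexus list in 7 of 8 (median 0.25), where corticosterone pups gave 2 of 13 and 1 of 8. Egr1 differed between the agents by -0.52 and Ttr by -0.87, both short of the adjusted threshold (limma adjusted p = 0.743 and 0.755). Maob differed by -0.08 ± 0.30 (SE) in saline pups, and the difference between agents was -0.31 ± 0.41 (SE). Paired and unpaired samples were processed together for each condition, so agent and processing round cannot be told apart.

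**Figure D5:**
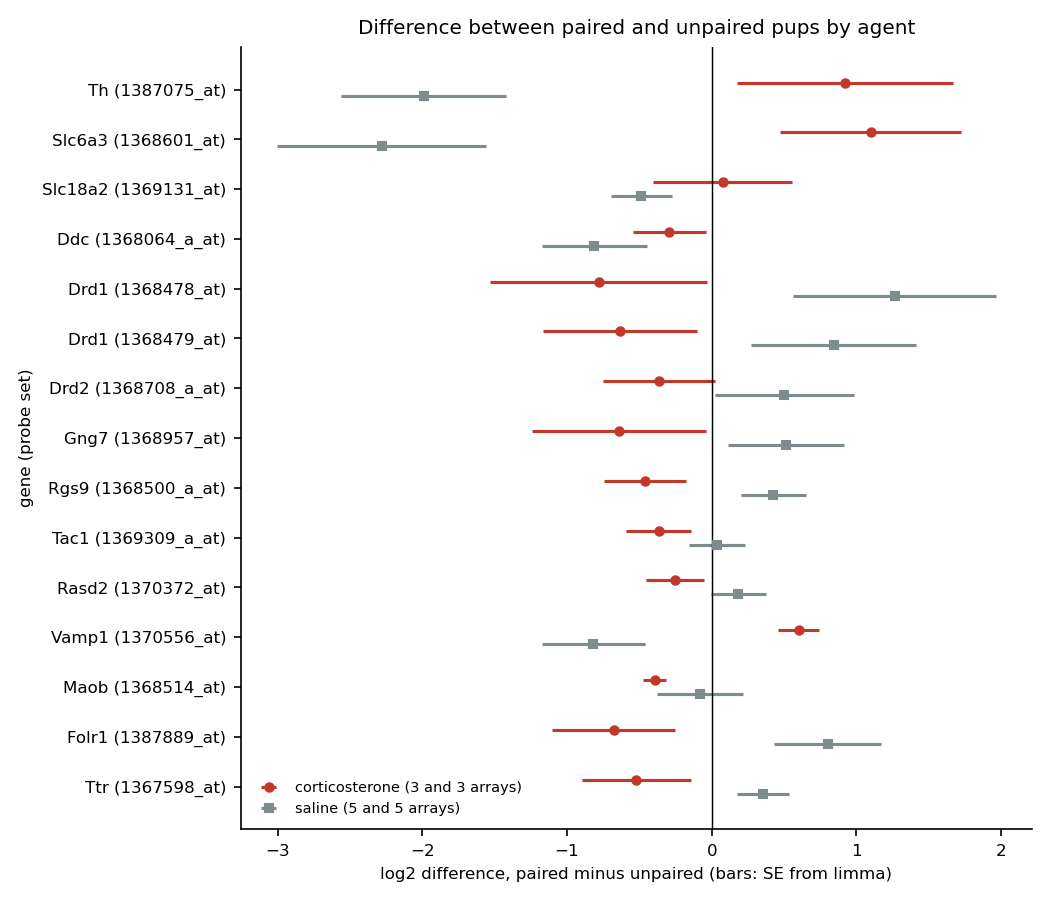
Paired minus unpaired log2 difference (x axis) for 15 probe sets (y axis) in corticosterone pups (circles, 3 and 3 arrays) and saline pups (squares, 5 and 5 arrays), with bars for the SE from limma. Th, Slc6a3, Vamp1 and Slc18a2 lie above 0 in corticosterone and below 0 in saline pups. Drd1, Drd2, Gng7, Rgs9, Tac1, Rasd2, Folr1 and Ttr show the reverse, and Ddc and Maob lie below 0 in both. No difference between the agents passed the adjusted threshold.

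Against 12-day pups on the same design, 2 paired and 2 unpaired, the pairing effect differed in 1 probe set of 15866 (0.0063%), and in 0 with a replicate block or with both array designs. At an unadjusted p under 0.05 it was higher in corticosterone pups in 217 (1.37%) and lower in 307 (1.93%). In 12-day pups the paired minus unpaired difference was 1.20 ± 0.41 (SE) for Th (1387075_at), 2.26 ± 0.36 for Slc6a3 (1368601_at) and -0.94 ± 0.32 for Drd1 (1368478_at). In corticosterone pups these differences were 0.92, 1.10 and -0.78, and 0.30, 0.34 and 0.02 without paired array 2. The differences between the conditions were -0.28 ± 1.10, -1.16 ± 0.91 and 0.15 ± 1.04 (SE). For Maob 12-day pups gave 0.07 ± 0.13 (SE), and the pairing effect was lower by 0.47 in corticosterone pups (unadjusted p = 0.00593, adjusted p = 0.99997 by limma).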

How the data were processed

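Amygdala RNA was measured on Affymetrix arrays. The deposited log2 values are the authors' probe set summaries; RMA and GCRMA are named in the submitters' processing notes, without version or role, and no other step is given in the sources used here. The deposited fold ratio of the authors' own comparison matched the difference of the group means to within 0.00012 in log2 and was not used further. Values were tested as deposited with limma 3.58.1 in R 4.3.3 (lmFit, eBayes with trend), with Benjamini-Hochberg adjustment over 15866 probe sets and a threshold of 0.05. No background or array normalization was added. The differences between agents and ages were interaction contrasts of the 6 corticosterone arrays with the 10 saline or the 4 12-day arrays of the smaller design. The rank product used 100 shuffles of the probe sets within each array. Alternatives were the rank product, a block for replicate number, no trend, robust moderation, median centring, quantile normalization, a minimum mean of 5, both array designs, and each array left out. Names were given to 5808 probe sets (4649 genes) through RefSeq's GRCr8 gene table, and the other probe sets are given by ID.

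Named genes were, at 1 probe set per gene and a log2 mean of at least 5 in the higher group, the 12 per direction with the smallest limma p among those without overlap and the 6 per direction with the largest difference. To these were added every measured dopamine gene, up to 4 genes of each of the other lists, 39 lists in all, and the probe sets called by the rank product. Other genes named in the text (Dcx, Gap43, Nr3c1, Sgk1, Tsc22d3, Mbp, Nr4a1, Bdnf, Arc, Egr3, Pmch, Slc17a7, Camk2a, Neurod2, Cyp26b1, Crhr1, Hsd11b2, Slc3a1, Cacna1a, Hcn2, Kcnj2 and Rpl32) were chosen after their values were seen. Some genes that the rule names are not reported here. A list takes the probe set with the highest mean per gene. The members and lists were chosen with earlier results of these data known. Same-numbered arrays did not deviate together (r of -0.28, 0.04 and -0.17 for replicates 1 to 3), so the numbers were not taken as pairs. The table holds no control probe sets, so RNA quality by 3′ to 5′ ratio was not analysed here. The number of arrays limits the precision. The fits were tested on simulated data.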

Additional observations from a re-analysis of the deposited data

Results flagged for a closer look

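Cacna1a, a P/Q-type calcium channel, was the only probe set (1367821_a_at) whose effect of pairing differed between corticosterone and 12-day pups by the test of the difference itself. The difference was 1.14 (limma adjusted p = 0.00084). In corticosterone pups the gene was dim, at 2.85, 2.85 and 2.87 in paired and 2.89, 2.88 and 2.84 in unpaired arrays. In 12-day pups on the same design it measured 3.29 and 3.28 in paired and 4.41 and 4.48 in unpaired arrays, and on the larger design 3.26 and 3.31 against 3.32 and 3.29. The call was lost with both array designs in the fit and with a replicate block.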

How the results depend on the processing

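In corticosterone pups 0 probe sets were called under every limma setting tried, against 449 at an unadjusted p under 0.05, 5 by the rank product and 1105 without overlap between groups. At the unadjusted threshold the 137 higher and 312 lower became 81 and 69 with a minimum mean of 5 and 39 and 151 with the spread of all 20 arrays. The lower count was 195 with array medians centred and 161 with a replicate block. Leaving out 1 array gave 113 to 235 higher and 162 to 1695 lower, the most without paired array 3 (1695) and unpaired array 3 (1125). In an alternative chosen after seeing the data, the rank product called 9, 4 and 28 without paired arrays 1 to 3 and 2, 9 and 1 without unpaired arrays 1 to 3. The cause was not tested. The comparison with saline gave 0 calls, or 1 without paired array 2 and 2 without unpaired array 3. There the 48 higher became 170 with a replicate block and 150 with the 2 sets of saline replicates (1 to 2 and 5 to 7) as a covariate, the 991 lower became 1596 with both array designs, and leaving out 1 corticosterone array gave 36 to 70 higher and 408 to 1471 lower. The comparison with 12-day pups gave 1 call, 0 with both array designs (204 lower instead of 307) or with a replicate block, and 1 to 2 without 1 array. Centring turned none of the 83 differences followed, but it moves all of them by the same amount. The replicate block could not turn any, because each replicate number occurs once in each group and the differences stay as they are. Quantile normalization turned those of Gch1 (1368503_at, to 0.0078), Drd4 (0.0041), Pitx3 (0.0031) and Foxa2 (0.0020), all dim. Leaving out 1 array turned Gng7 (-1.21 to 0.052), Drd1 1368478_at (-1.58 to 0.022), Drd2 (-0.81 to 0.0072), Ddc (-0.46 to 0.0024), Aldh1a1 (-0.12 to 0.64), Sncg (-0.038 to 0.36), both Slc18a2 probe sets (-0.28 to 0.56 and -0.048 to 0.69), Slc6a3 1368602_at (-0.016 to 0.034), Dbh (-0.0097 to 0.034), Ret 1371112_at (-0.069 to 0.0030) and 1388208_a_at (-0.051 to 0.38), and Gch1 (-0.024 to 0.0028 and -0.013 to 0.20). The cause was not tested.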

Other observations

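Probe sets that ranged over more than 3 log2 units among the 6 arrays numbered 8, and 4 of them are not described above. Probe set 1374684_at, which has no gene name here, measured 10.40, 2.34 and 2.69 in paired and 2.80, 10.68 and 10.39 in unpaired pups. Probe set 1375535_at, also without a name, was high in the same 3 arrays, at 10.66, 10.51 and 10.54, and between 2.74 and 2.88 in the other 3. In saline pups both were high in the same 4 of 10 arrays, paired array 7 and unpaired arrays 2, 5 and 6 (9.11 to 12.14), and between 2.39 and 2.64 in the rest. Slc3a1, a subunit of an amino acid transporter, measured 5.98, 10.06 and 10.23 in paired and 10.00, 6.12 and 10.14 in unpaired pups. Low arrays of all 3 probe sets occurred in both groups. The differences of 1374684_at and 1375535_at were -2.81 ± 2.90 and -2.59 ± 2.89 (SE) in corticosterone pups and -3.23 ± 2.62 and -3.08 ± 2.54 in saline pups.

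The unnamed probe set 1372208_at measured 7.63, 5.30 and 9.15 in paired and 8.82, 7.91 and 8.26 in unpaired pups. Its arrays ranked as they did for Drd1 among the paired pups. The other 3 probe sets called by the rank product have no gene name here, and all were higher in paired pups and without overlap. Probe set 1389699_at measured 4.38, 4.10 and 4.11 against 3.09, 3.02 and 3.71 (difference 0.92 ± 0.19, SE; limma adjusted p = 0.676), and it stayed between 0.80 and 1.14 when each array was left out. Probe sets 1372510_at and 1372213_at differed by 0.77 ± 0.22 and 0.84 ± 0.28 (SE). In saline pups the 3 differed by -0.22, -0.39 and -0.03.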
